A study of Mus musculus with 32 samples.

Results

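The genes described here are 40 nucleolar genes of 34223 genes measured in mouse embryos that were sequenced singly late in the 2-cell stage. They were chosen by name for their roles, with earlier results of these data known. They comprise 21 genes of large ribosomal subunit (60S) assembly, 6 genes of RNA polymerase I transcription, 5 genes of the H/ACA ribonucleoproteins and 8 genes of nucleolar structure and other nucleolar work. All 40 reached a normalized count of 10 in 8 or more embryos, the filter that left 15559 genes to test. The embryos were wild type, were made by in vitro fertilization and were collected 28 h after it. Every embryo received H3.3-GFP mRNA, which encodes a histone variant tagged with a fluorescent protein, and an oligonucleotide with locked nucleic acid, both by microinjection. The oligonucleotide of 16 embryos (Val_LNA) was antisense to tRFValCAC, which is a piece of a transfer RNA for valine, and that of 16 embryos (Ctrl_LNA) was a scramble. The comparison asks which RNAs differed when the fragment was targeted. Each library was 1 embryo, and no matings or injection days are named, so a p-value reflects the variation among the sequenced embryos, which may be technical in part.

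The nucleolus is where ribosomal RNA is made and where ribosomes are put together. RNA polymerase I transcribes the ribosomal RNA precursor, H/ACA ribonucleoproteins convert chosen uridines of it to pseudouridine, and a long series of GTPases, helicases, methyltransferases and scaffold proteins folds and trims it into the large subunit. In the early mouse embryo compact nucleolus precursor bodies inherited from the egg turn into working nucleoli as the embryo starts to transcribe its own genome. The libraries hold polyadenylated RNA, so the values are levels of the mRNAs of this machinery. Ribosomal RNA, small nucleolar RNA and tRFValCAC itself were not analysed here. Each value was scaled by a size factor of its embryo, so it is a level relative to the other mRNAs there, not an amount per embryo or per cell. A lower value may come from less of an mRNA or from more of the others, which cannot be told apart.

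Of the 40 genes, 35 had a promoter in the RefSeq table for GRCm38.p6, with 45 promoters in all, each running from 250 bases before to 50 bases after the transcription start. The ETS motif CCGGAAG, in either direction, stood in 15 of these 45 promoters (33.3%), belonging to 14 genes. It stood in 8.86% of all 32851 promoters of the table and in 16.7% of the 12091 promoters of tested genes. The other motifs searched were less frequent or near the background: the E-box CACGTG, which is its own reverse complement, in 8.89% against 9.81% of tested promoters, the NRF1 motif GCATGCG in 4.44% against 6.38%, and the YY1 motif AAGATGG in 2.22% against 7.05%. The mean GC content was 60.4% in the promoters of the 40 genes, 60.2% in those of tested genes and 53.8% in all. These are matches of letters, not measured binding sites. The sequences printed here are the stretches before the start that no annotated exon covers, shown for Ftsj3, the gene with the most stable difference between the groups, and for the 4 genes whose 250 bases before the start were free of exons and held the ETS motif. They are on GRCm38.p6 at chr11:106256085-106256153 (minus strand, 69 bases, Ftsj3), chr6:125131633-125131882 (plus strand, Nop2), chr3:129831397-129831646 (minus strand, Gar1), chr9:53248113-53248362 (minus strand, Ddx10) and chr19:46075597-46075846 (plus strand, Nolc1). Each is written 5′ to 3′ on the strand of its gene and ends at the last base before the start, with matches to the searched motifs in capitals.
Ftsj3: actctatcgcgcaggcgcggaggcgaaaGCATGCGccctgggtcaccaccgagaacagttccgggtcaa
Nop2: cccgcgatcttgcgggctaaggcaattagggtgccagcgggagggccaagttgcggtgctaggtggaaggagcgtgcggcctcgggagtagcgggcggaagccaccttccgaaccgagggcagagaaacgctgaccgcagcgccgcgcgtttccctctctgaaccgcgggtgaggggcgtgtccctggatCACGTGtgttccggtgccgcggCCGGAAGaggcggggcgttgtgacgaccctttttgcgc
Gar1: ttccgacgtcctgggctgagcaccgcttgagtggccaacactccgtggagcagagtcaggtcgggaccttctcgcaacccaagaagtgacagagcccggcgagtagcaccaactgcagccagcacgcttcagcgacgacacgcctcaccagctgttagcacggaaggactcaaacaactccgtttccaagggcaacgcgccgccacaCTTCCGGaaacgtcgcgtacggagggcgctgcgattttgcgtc
Ddx10: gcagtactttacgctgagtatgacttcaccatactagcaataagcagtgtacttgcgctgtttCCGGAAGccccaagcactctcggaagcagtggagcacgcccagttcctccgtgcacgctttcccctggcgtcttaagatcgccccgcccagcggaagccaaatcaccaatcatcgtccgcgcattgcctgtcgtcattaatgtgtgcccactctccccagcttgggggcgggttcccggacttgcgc
Nolc1: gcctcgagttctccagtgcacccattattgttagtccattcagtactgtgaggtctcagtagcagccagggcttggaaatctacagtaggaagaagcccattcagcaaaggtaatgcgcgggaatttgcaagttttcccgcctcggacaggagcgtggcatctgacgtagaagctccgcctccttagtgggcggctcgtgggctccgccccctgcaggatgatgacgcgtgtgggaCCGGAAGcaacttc
The capitals mark an NRF1 motif beginning 41 bases before the start of Ftsj3. The promoter of Ftsj3 also holds the YY1 motif, outside the printed stretch. In Nop2 the capitals mark the E-box at 60 bases and the ETS motif at 38 bases before the start. The ETS motif begins 43 bases before the start of Gar1, where it is read on the opposite strand, 187 bases before that of Ddx10 and 14 bases before that of Nolc1.

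The embryos gave between 2592925 and 6259870 reads each. Between 16687 and 20200 genes were detected in 31 of the 32 embryos, and 7276 in Ctrl_LNA 48, whose median correlation with the other embryos was 0.496, below the 0.609 of the next lowest. Mitochondrial genes took 2.41% to 5.41% of reads. The 9 measured markers of the 2-cell stage summed to 8132 to 25310 normalized counts in Val_LNA and 2924 to 26600 in Ctrl_LNA, and the 8 oocyte markers to 4830 to 26700 and 1690 to 18070. The 10 markers of cumulus and granulosa cells, which surround the egg, summed to at most 260.6 in Val_LNA and 189 in Ctrl_LNA, with Foxl2 and Fshr at 0 in all Ctrl_LNA embryos. The 6 sperm markers summed to at most 60.6 and 50.4, with Tnp2 at 0 in all Ctrl_LNA embryos, and the 6 blastocyst markers to at most 309 and 423. The ranges of each list overlapped between the groups. The Val_LNA median was the higher for all 9 of the 2-cell markers and all 8 of the oocyte markers, with and without Ctrl_LNA 48. Their summed levels had medians of 11340 and 10100 in Val_LNA, against 9399 (range 5647 to 26600) and 7768 (range 4203 to 18070) in the 15 controls without that embryo, which held the lowest sum of both lists. Limma called 0 of these 17 markers with or without Ctrl_LNA 48, and at an unadjusted p under 0.05 2 of the 9 and 0 of the 8 differed, and 2 and 1 without that embryo. The cumulus gene Kitl was called lower without it (-2.66, limma adjusted p = 0.0372). Tnfaip6, the other cumulus marker that was tested, leaned higher without that embryo (1.92, limma adjusted p = 0.105) and was not called. The medians of the 2-cell and oocyte markers thus lay higher in the group in which most nucleolar genes leaned lower. By limma the 2-cell marker Zscan5b went the other way, with a log2 fold change of -0.11, and -0.24 without Ctrl_LNA 48. Of all tested genes 35.7% had a log2 fold change below 0, and 45.8% without that embryo. The part of these markers in the results was not tested.

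Ctrl_LNA 48 also stood apart over the nucleolar genes, so the calls and the genes described in full are given with and without it. It had 0 reads of 9 of the 40 (22.5%), where 58.2% of all tested genes were at 0 in this embryo: Bop1, Gnl2, Sdad1, Noc3l, Rrp1b, Ddx18, Polr1a, Npm3 and Nol10. For 18 of the 40 (45%) it had the highest value of all embryos, against 13.3% of tested genes. These shares were not matched on level. Matched shares come from tested genes with a mean level between 285 and 936.8 normalized counts, the middle range of the 40. These means were taken over all embryos, Ctrl_LNA 48 included, so its own values helped to decide which genes entered. Of these, 20.3% were at 0 in this embryo and 27.9% were highest in it. Of the 20 nucleolar genes in that range, 20% were at 0 and 50% were highest, so the share at 0 was near that of the matched genes. Ftsj3 and Polr1b, counted among those highest, lay in that range only through their values in this embryo. The share that was highest thus depends in part on how the range was set. Polr1b stood at 3922 normalized counts in this embryo and at no more than 641 in any other. Rrn3 stood at 7080 against at most 2036. It was below every other embryo for Nop2, Nol9, Gar1 and Npm1, and within the range of the others for the remaining 9. Among the other embryos zeros were rare: 3 of 640 values in Val_LNA and 1 of 600 in Ctrl_LNA. The plot of Ctrl_LNA 48 against the other embryos shows these extremes gene by gene.

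**Figure D1:**
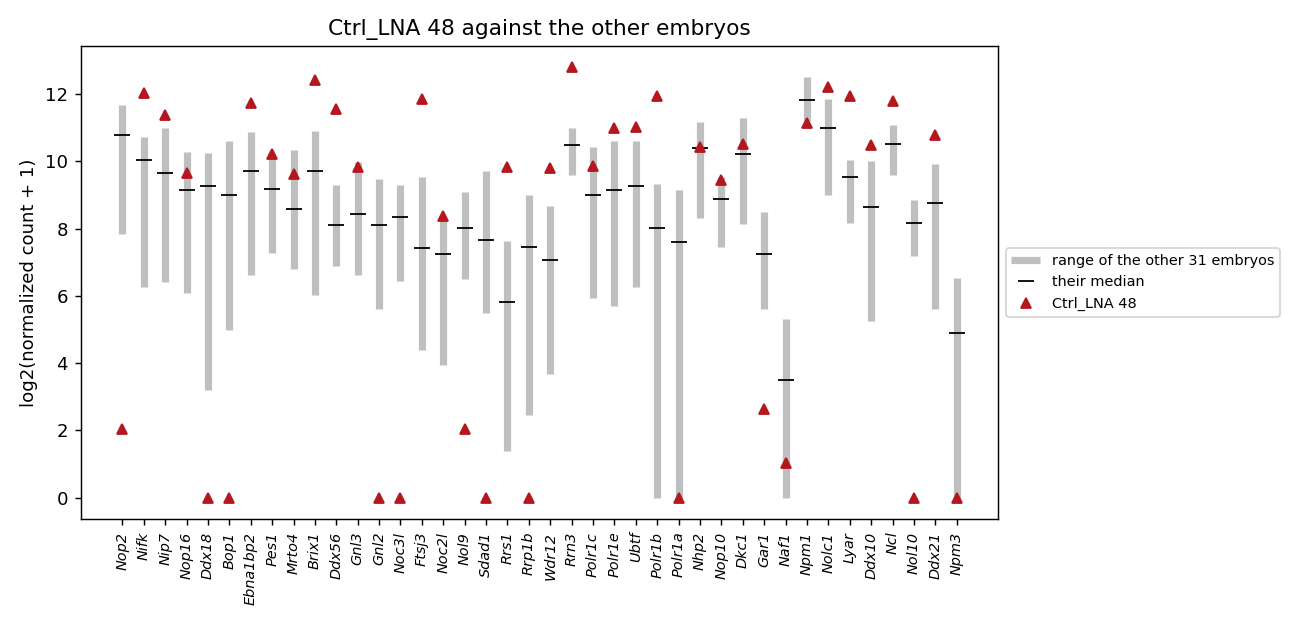
The level of each of the 40 genes in Ctrl_LNA 48 (triangles) beside the range (grey bars) and median (black dashes) of the other 31 embryos, on the scale log2(normalized count + 1). In 9 genes the triangle lies at 0, in 18 it lies above every other embryo and in 4 it lies below them.

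The nucleolar genes were well expressed at this stage. In the 15 Ctrl_LNA embryos other than 48 their median level was 145 normalized counts per kilobase of exon, against 19.3 for all tested genes, and 37 of the 40 lay above that background. The highest was Npm1, which encodes nucleophosmin, the abundant protein of the outer, granular part of the nucleolus, at 1770 per kilobase. It was followed by Nhp2, a core protein of H/ACA particles, at 1172 and by Nop2, a methyltransferase of large-subunit ribosomal RNA, at 790.6. The lowest were Naf1, which assembles H/ACA particles and then leaves them, at 3.93, Wdr12 at 10.5 and Polr1a at 16.8. The core H/ACA proteins thus spanned 92.6 (Gar1) to 1172 (Nhp2) per kilobase, and the RNA polymerase I genes 16.8 (Polr1a) to 320.5 (Rrn3). The genes also varied less between embryos than most: their median coefficient of variation (SD over mean) was 0.495 in these 15 controls, against 0.673 for all tested genes, and 0.505 against 0.721 in Val_LNA. These medians were not matched on level. Npm1 was the steadiest in controls, at 0.205, and Brix1 the most variable, at 0.767. Together the 40 genes took 0.191% to 1.12% of the normalized counts in Val_LNA (median 0.606%), 0.299% to 1.12% in the 15 controls (median 0.804%) and 1.22% in Ctrl_LNA 48.

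**Figure D2:**
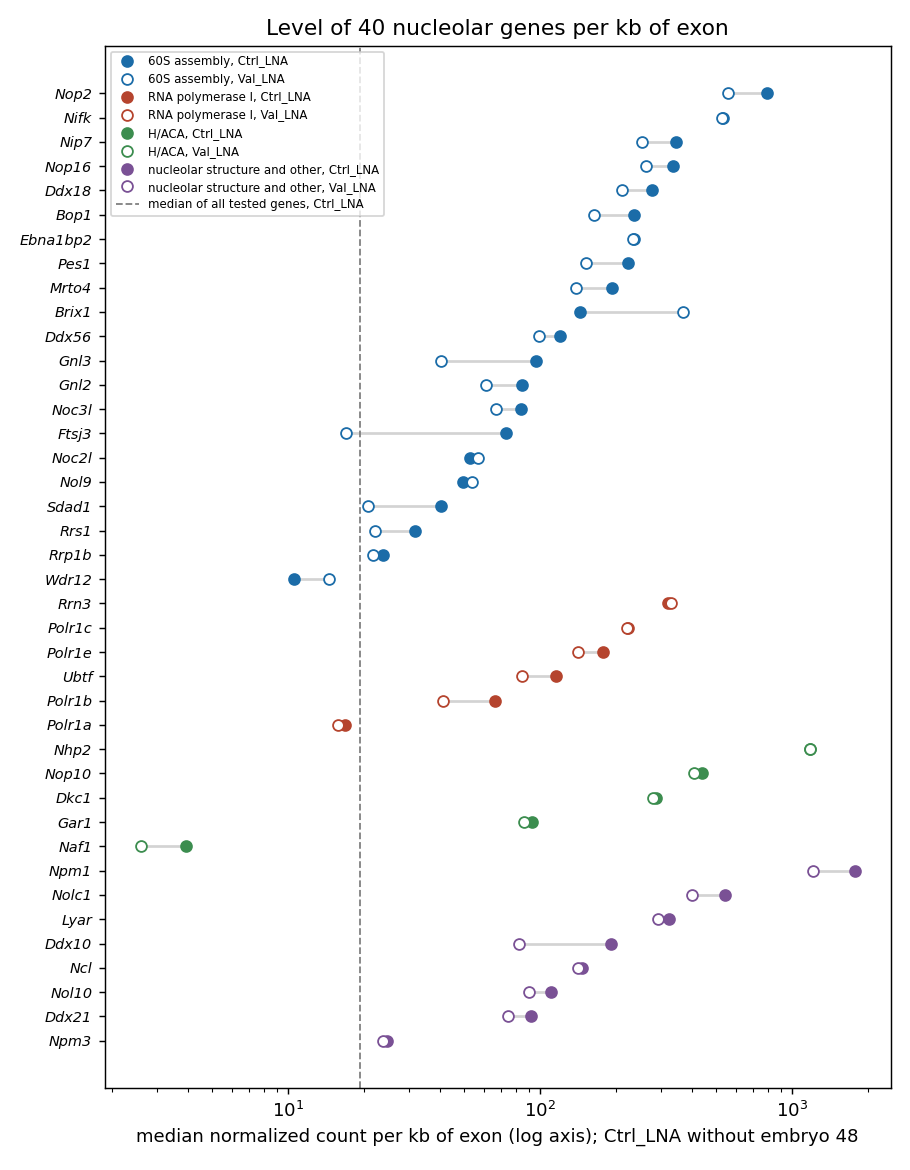
Median normalized count per kilobase of exon (log axis) of each gene in Ctrl_LNA without embryo 48 (filled) and Val_LNA (open), ordered by control level within the 4 subgroups. The dashed line is the median of all tested genes in those controls (19.3), and 37 of the 40 filled points lie to its right.

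Between Val_LNA and Ctrl_LNA, 1 of the 40 genes was called lower and 0 were called higher with all 32 embryos (limma on log2(normalized count + 1), Benjamini-Hochberg adjusted p under 0.05), where 1.31% of tested genes were called lower and 0.881% higher. The gene that fell was Ftsj3, which encodes a methyltransferase of large-subunit precursors. At an unadjusted p under 0.05, 6 of the 40 were lower and 1 higher, against 5.85% and 8.88% of tested genes. Without Ctrl_LNA 48, limma called 3 lower (Ftsj3, Gnl3 and Npm1) and 1 higher (Brix1), where the background was 2.63% and 1.57%. At an unadjusted p under 0.05 the counts were again 6 and 1, against 8.46% and 8.28% of tested genes. Of these 4 calls, 1 was shared with the test on all embryos. On recovered reads edgeR called 1 lower and 0 higher with all embryos (background 1.08% and 0.186%) and DESeq2 2 lower and 0 higher (background 2.09% and 1.21%). The gene DESeq2 added was Ddx56, with a log2 fold change of -1.14 and an adjusted p of 0.0242. It was not called by limma (-0.75, adjusted p = 0.239) or by edgeR (adjusted p = 0.0852). Without Ctrl_LNA 48, edgeR called Ftsj3 lower and 0 genes higher (background 1.61% and 0.546%), and DESeq2 called Ftsj3 and Npm1 lower and 0 higher (background 2.58% and 1.72%).

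Most of the 40 genes leaned lower in Val_LNA by an amount that few passed a test for. With all embryos 27 of 40 log2 fold changes were below 0 (67.5%), against 35.7% of tested genes, with a median of -0.22 against 0.26. Without Ctrl_LNA 48, 34 of 40 were below 0 (85%), against 45.8%, with a median of -0.31 against 0.07. The tested genes' own median thus moved with that embryo and with the scaling: it was -0.19 when each embryo was centred on its median tested gene, where the 40 had a median of -0.67, and 0.18 with TMM scaling, where the 40 had a median of -0.30. That centring also changed the split of calls over all genes from 204 lower and 137 higher to 300 lower and 61 higher, and it called 1 of the 40 lower and 0 higher (background 1.93% and 0.392%). Among the 2716 tested genes with a mean level between 285 and 936.8 normalized counts, the middle range of the 40, the median was 0.18, and 0.03 without Ctrl_LNA 48. The 20 nucleolar genes of that range had medians of -0.51 and -0.42, with 15 and 20 of the 20 below 0. The range was set on means over all embryos and was not redefined for the values without Ctrl_LNA 48. Ftsj3 and Polr1b were among the 20 only through their levels in that embryo (3692 and 3922 normalized counts). Both were below 0 with and without it, and the comparison was not repeated without these genes. The nucleolar genes share embryos, depth and scaling, so their number is not a number of independent observations. They were also chosen with earlier results of these data known, so these shares describe the list and do not test it. The plot of log2 fold changes shows all 40 by subgroup.

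**Figure D3:**
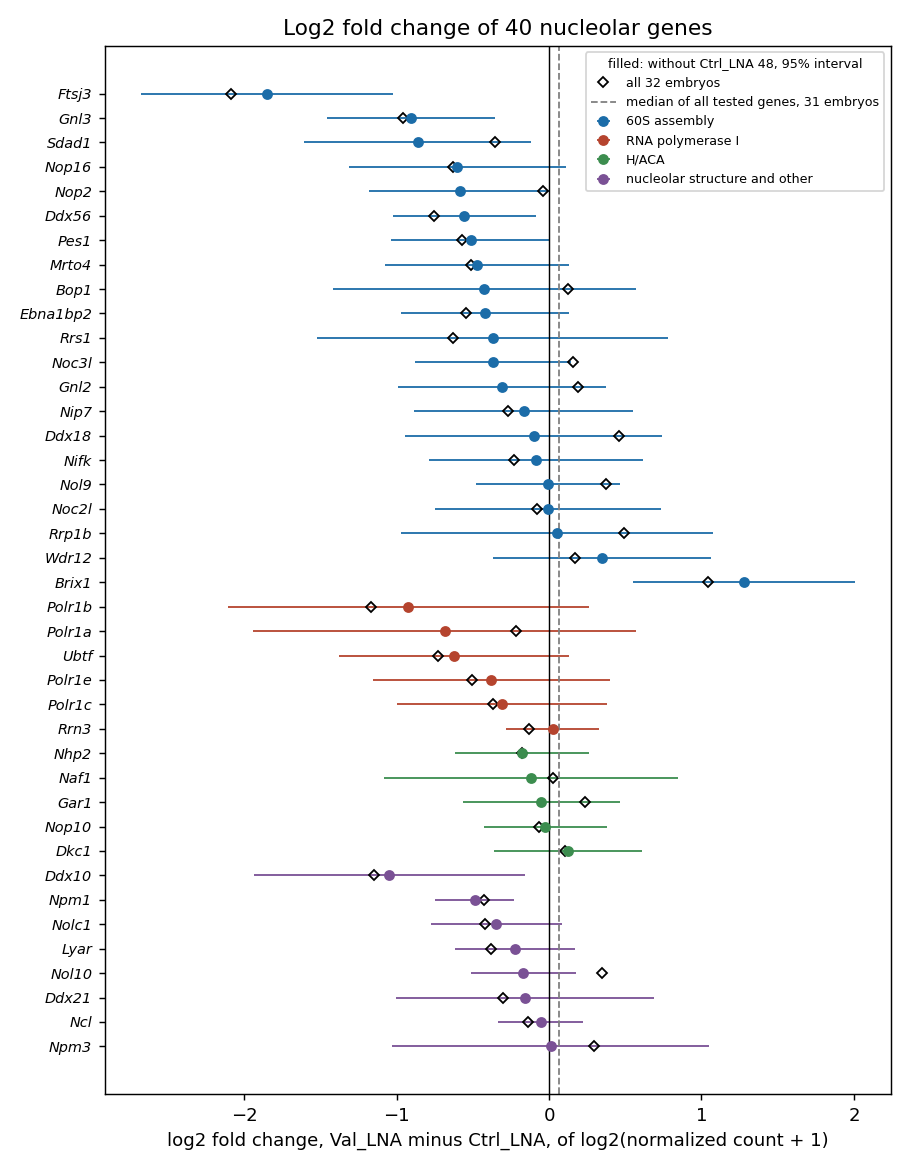
Log2 fold change, Val_LNA minus Ctrl_LNA, of log2(normalized count + 1) for each of the 40 genes, without Ctrl_LNA 48 (filled, with the 95% interval of limma) and with all 32 embryos (open diamonds). The dashed line is the median of all tested genes in the fit on 31 embryos (0.07). Ftsj3 lies lowest, and Brix1 is the gene whose interval lies wholly to the right of 0.

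RNA polymerase I was represented by its largest subunit Polr1a, the second largest subunit Polr1b, Polr1c, which it shares with RNA polymerase III, Polr1e, the promoter-binding factor Ubtf and the initiation factor Rrn3, which ties the polymerase to growth signals. None of the 6 was called by limma in either direction, with or without Ctrl_LNA 48, and 0 had an unadjusted p under 0.05 in the test on all embryos. Their log2 fold changes were below 0 for 6 of 6 with all embryos and for 5 of 6 without Ctrl_LNA 48, with medians of -0.44 and -0.50. Ubtf ranged from 76.4 through a median of 556 to 1137 normalized counts in Val_LNA and from 202 through 757 to 1565 in the 15 controls, with 2070 in Ctrl_LNA 48. Its groups overlapped over most of their range, with a log2 fold change of -0.73 (SE 0.38, limma adjusted p = 0.367), and of -0.62 (SE 0.37, adjusted p = 0.4105) without Ctrl_LNA 48. Polr1b ranged from 0 through 239 to 641 in Val_LNA and from 77.4 through 385 to 614 in the 15 controls. Although the control median lay above 14 of 16 Val_LNA embryos, the lowest and the highest values of both groups were Val_LNA embryos once Ctrl_LNA 48 was set aside. Its log2 fold change was -1.17 (SE 0.62, limma adjusted p = 0.374) and -0.93 (SE 0.58, adjusted p = 0.442) without Ctrl_LNA 48. It was -0.69 without Val_LNA 4 (limma adjusted p = 0.505), where Polr1b was at 0, and -0.47 with edgeR without Ctrl_LNA 48 (adjusted p = 0.730). Polr1a was at 0 in Val_LNA 4 too, and had medians of 187 and 199.5. Rrn3 had medians of 1425 in Val_LNA and 1384 in the 15 controls, and its log2 fold change turned from -0.13 to 0.02 without Ctrl_LNA 48 (95% interval -0.28 to 0.33).

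The genes of 60S assembly, 21 of the 40, held 3 of the 4 genes called by limma with or without Ctrl_LNA 48. Ftsj3 and Gnl3 were called lower and Brix1 higher. Of all tested genes 1.31% were called lower and 0.881% higher, and 2.63% and 1.57% without that embryo. Whether calls gathered in this subgroup was not tested. The median log2 fold change of the 21 was -0.23 with all embryos and -0.37 without Ctrl_LNA 48, with 13 and 18 of 21 below 0. Ftsj3 (ENSMUSG00000020706.13, chr11:106249142-106256079, minus strand) is the counterpart of yeast Spb1, which methylates the ribose of large-subunit RNA. It ranged from 20.0 through a median of 74.1 to 341 normalized counts in Val_LNA. In the 15 controls it ranged from 50.1 through 319 to 744, and Ctrl_LNA 48 stood far above at 3692. It was under the median of the controls in 15 of 16 Val_LNA embryos, and the groups overlapped: 10 of the 15 controls lay within the Val_LNA range, the lowest of them Ctrl_LNA 50 (50.1) and Ctrl_LNA 34 (72.9). The mean was 107 ± 94.3 (SD, n = 16) in Val_LNA, 355 ± 217 (SD, n = 15) in the controls without Ctrl_LNA 48 and 563 ± 860 (SD, n = 16) with it. The Val_LNA mean was thus 30.2% of that of the 15 controls. Its log2 fold change was -2.09 (SE 0.46, limma adjusted p = 0.00802), and -1.85 (SE 0.41, adjusted p = 0.0042) without Ctrl_LNA 48. With edgeR it was -2.42 (adjusted p = 0.00559).

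Ftsj3 was called in each of the 32 fits that left out 1 embryo. Over the other settings, the fit on all embryos included, it was called in 13 of 16, with adjusted p between 2.19e-05 and 0.390 by limma, edgeR or DESeq2. The 3 settings that ended the call used 1 run of library numbers in each group, with 8 embryos a side or 7 controls without Ctrl_LNA 48. The log2 fold change was -2.11 for numbers 1 to 8 against 31 to 38 (limma adjusted p = 0.0708), -2.06 for numbers 13 to 20 against 43 to 50 (adjusted p = 0.390) and -1.61 for the latter without Ctrl_LNA 48 (adjusted p = 0.223). The size was thus similar in both runs, and the difference between them had an unadjusted limma p of 0.958, and of 0.545 without Ctrl_LNA 48. No other gene's exons overlap those of Ftsj3 in GENCODE M21.

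Gnl3 (ENSMUSG00000042354.7, chr14:31012433-31019152, minus strand) encodes nucleostemin, a nucleolar GTPase abundant in stem cells and early embryos. It ranged from 97.4 through a median of 247 to 854 normalized counts in Val_LNA and from 239 through 587 to 1013 in the 15 controls, with 918 in Ctrl_LNA 48. The Val_LNA embryos lay low, 14 of 16 under the median of the controls, with Val_LNA 7 (854) and Val_LNA 16 (634) above it. Its log2 fold change was -0.96 (SE 0.28, limma adjusted p = 0.0679), and -0.91 (SE 0.27, adjusted p = 0.0489) without Ctrl_LNA 48. Leaving out 1 embryo at a time gave a call in 5 of 32 fits: those without Ctrl_LNA 48, 34 or 45 or without Val_LNA 7 or 16. In no other setting was it called, with adjusted p between 0.0509 and 0.476 by limma, edgeR or DESeq2. Gnl3 exons overlap Pbrm1 on the opposite strand, and no step that marks strand is named, so reads in the shared stretch may come from either gene. The gene also holds 3 small nucleolar RNA genes.

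Brix1 (ENSMUSG00000022247.12, chr15:10474779-10485947, minus strand), a factor of early large-subunit precursors, went the other way. It ranged from 339 through a median of 1009 to 1915 in Val_LNA and from 64.1 through 392 to 1313 in the 15 controls. The control median lay above only 1 of 16 Val_LNA embryos, yet the highest value of all, 5422, was that of Ctrl_LNA 48. Its log2 fold change was 1.05 (SE 0.41, limma adjusted p = 0.220) and 1.28 (SE 0.36, adjusted p = 0.0329) without Ctrl_LNA 48, the one fit of the 32 leaving out an embryo that called it. The difference was larger for library numbers 1 to 8 against 31 to 38 (2.00, adjusted p = 0.0424) than for 13 to 20 against 43 to 50 without Ctrl_LNA 48 (0.48, adjusted p = 0.640), and the test of that difference gave an unadjusted limma p of 0.0295 (adjusted p = 0.831). On recovered reads edgeR gave 0.19 (adjusted p = 0.927), and 0.77 (adjusted p = 0.361) without Ctrl_LNA 48. Over the 16 settings its adjusted p by limma, edgeR or DESeq2 lay between 0.0424 and 0.949.

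**Figure D4:**
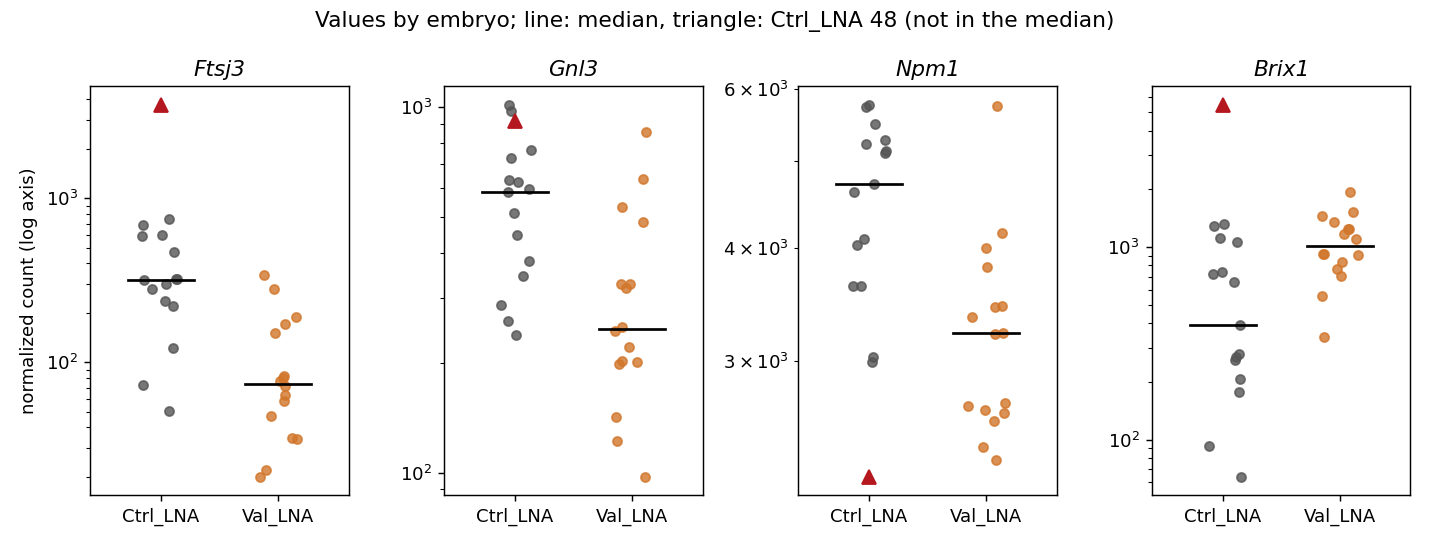
Normalized count (log axis) of Ftsj3, Gnl3, Npm1 and Brix1 in each embryo, with Ctrl_LNA 48 as a triangle and lines at the medians of Val_LNA and of the 15 other Ctrl_LNA embryos. Ftsj3, Gnl3 and Npm1 lie lower in Val_LNA and Brix1 higher, the groups overlap in each, and the triangle lies at the top for Ftsj3 and Brix1 and at the bottom for Npm1.

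The other 18 genes of 60S assembly were not called by limma with or without Ctrl_LNA 48. Pes1, Bop1 and Wdr12 form the PeBoW complex, needed to process the large-subunit RNA, and gave log2 fold changes of both signs by limma, while edgeR without Ctrl_LNA 48 put Wdr12 at -0.03. Pes1 had medians of 458 in Val_LNA and 672 in the 15 controls (log2 fold change -0.57 with all embryos and -0.51 without Ctrl_LNA 48, limma adjusted p = 0.3165 and 0.308). Bop1 had 484 and 698 (0.12 and -0.42, limma adjusted p = 0.945 and 0.709), and Wdr12 had 173 and 126 (0.17 and 0.35, limma adjusted p = 0.854 and 0.662). Wdr12 was, with Brix1, 1 of the 2 genes with an unadjusted p under 0.05 for a difference between the library runs in all embryos. It gave 0.97 in the lower numbers and -0.37 in the upper numbers without Ctrl_LNA 48, and 0 of 15559 genes passed the adjusted threshold in that limma test with or without Ctrl_LNA 48, where 808 and 920 had an unadjusted p under 0.05.

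Among the helicases, Ddx56 had medians of 250 in Val_LNA and 303 in the 15 controls, with 3022 in Ctrl_LNA 48, and Ddx18, the counterpart of yeast Has1, 526 and 689.5, with 0 in Ctrl_LNA 48. By limma that embryo set the sign of Ddx18, which was 0.46 with it and -0.10 without it. With that embryo edgeR gave -0.39 and DESeq2 -0.30. Sdad1, whose yeast counterpart is needed for export of the large subunit, had medians of 135 and 263 and changed from -0.36 to -0.86 without Ctrl_LNA 48 (adjusted p = 0.206 by limma). Nop2 had medians of 1544 in Val_LNA and 2192 in the 15 controls, with 3.15 in Ctrl_LNA 48, and its log2 fold change was -0.04 with that embryo and -0.59 without it (adjusted p = 0.305 by limma). Noc2l and Noc3l, partners in moving large-subunit precursors through the nucleus, stood at 162 against 150 and 266 against 335. Nifk (1030 and 1045), Nol9, the kinase that helps to trim the internal spacer (265 and 244), and Rrp1b (166 and 183) had nearly equal medians in Val_LNA and the 15 controls. Ebna1bp2, a partner of Brix1 in yeast, had close medians too (829 and 839), but its Val_LNA mean was 78.0% of that of the 15 controls, with log2 fold changes of -0.54 with all embryos and -0.42 without Ctrl_LNA 48 (limma adjusted p = 0.380 and 0.453). The remaining genes were lower in their Val_LNA medians: Gnl2, a GTPase like Gnl3 (225 against 312), Nip7 (790 against 1083), Mrto4, which holds the place of the stalk protein (362 against 501), Nop16 (486 against 622) and Rrs1, which helps to load the 5S particle (45.4 against 65.1). None of these differences passed the limma test. The exons of 12 of the 40 genes overlap a gene on the opposite strand in GENCODE M21, so their counts may include its reads: Pes1, Bop1, Wdr12, Gnl2, Gnl3, Sdad1, Noc2l, Rrp1b, Polr1a, Nhp2, Dkc1 and Npm3.

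The H/ACA genes had the median nearest to 0 of the 4 subgroups. Of Nhp2, Gar1, Nop10 and Dkc1, the 4 core proteins, of which Dkc1 is the pseudouridine synthase, and Naf1, none was called, 0 had an unadjusted p under 0.05 in the limma test on all embryos, and edgeR and DESeq2 called 0. Their median log2 fold change was 0.02 with all embryos and turned to -0.05 without Ctrl_LNA 48. Both values lay below the median of all tested genes in the same fit. Nhp2 ranged from 318 through a median of 1349 to 2168 normalized counts in Val_LNA and from 781 through 1343 to 2281 in the 15 controls. The medians were nearly equal and the groups overlapped almost wholly, with a log2 fold change of -0.18 (SE 0.22, limma adjusted p = 0.701, 95% interval -0.62 to 0.26), and of -0.18 (adjusted p = 0.727) without Ctrl_LNA 48. Gar1 ranged from 48.02 through 148 to 360 in Val_LNA and from 71.6 through 159 to 274 in the 15 controls, with 5.25 in Ctrl_LNA 48. Its log2 fold change was 0.24 with all embryos (SE 0.38, limma adjusted p = 0.787) and -0.05 without Ctrl_LNA 48 (95% interval -0.57 to 0.46). Dkc1 had medians of 1152 and 1182 and a log2 fold change of 0.10 with all embryos and 0.12 without Ctrl_LNA 48 (95% interval -0.36 to 0.61). Nop10 had medians of 453 and 486. Naf1, at 8.03 and 12.2, was too low for a precise comparison (95% interval -1.09 to 0.84 without Ctrl_LNA 48). Whether the H/ACA genes differed from the other subgroups was not tested.

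Of the 8 genes of nucleolar structure and other nucleolar work, Npm1 was called lower by limma without Ctrl_LNA 48 and 0 were called with all embryos, where 2 (Npm1 and Ddx10) had an unadjusted p under 0.05. Their median log2 fold change was -0.34, and -0.19 without Ctrl_LNA 48. Npm1 (ENSMUSG00000057113.13, chr11:33152287-33163206, minus strand) ranged from 2334 through a median of 3222 to 5745 normalized counts in Val_LNA and from 2997 through 4717 to 5760 in the 15 controls, with 2235 in Ctrl_LNA 48. Ctrl_LNA 48 was the lowest of all embryos, and Val_LNA 7 (5745) was the only Val_LNA embryo above the control median. Its mean was 3275 ± 871 (SD, n = 16) in Val_LNA and 4563 ± 935 (SD, n = 15) in the controls without Ctrl_LNA 48, 71.8% of the control level. The log2 fold change was -0.43 (SE 0.14, limma adjusted p = 0.0992), and -0.49 (SE 0.13, adjusted p = 0.0178) without Ctrl_LNA 48. It was also called without Val_LNA 7 (adjusted p = 0.0326) and by DESeq2 without Ctrl_LNA 48 (adjusted p = 0.0172), but not by edgeR without Ctrl_LNA 48 (adjusted p = 0.0543). Over the 16 settings other than leaving out 1 embryo its adjusted p lay between 0.0172 and 0.533 by limma, edgeR or DESeq2. Npm1 has processed copies in the mouse genome, and how the authors' counting divided reads between them is not given in the sources used here.

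Ddx10, a helicase whose yeast counterpart Dbp4 works on the small-subunit precursor, ranged from 37.4 through a median of 258 to 970 in Val_LNA and from 135 through 598 to 1036 in the 15 controls, with 1422 in Ctrl_LNA 48. The Val_LNA values were low in 11 of 16 embryos, and their spread (coefficient of variation 0.84 against 0.556 in the 15 controls) was wider. The log2 fold change was -1.15 (SE 0.44, limma adjusted p = 0.207), and -1.05 (SE 0.44, adjusted p = 0.195) without Ctrl_LNA 48. Nolc1, a chaperone of small nucleolar particles, had medians of 1582 and 2148, the helicase Ddx21 of 385 and 475 and the zinc finger protein Lyar of 706 and 778. Ncl, which encodes nucleolin and holds 3 small nucleolar RNA genes, had 1433 in Val_LNA and 1493 in the 15 controls, with a log2 fold change of -0.06 without Ctrl_LNA 48 (95% interval -0.33 to 0.22). Nol10, whose yeast counterpart belongs to the small-subunit processome, had medians of 274 and 334, with 14 of 16 Val_LNA embryos under the latter. Npm3, a relative of Npm1, stood at 28.2 and 29.2. The log2 fold changes of Nol10 and Npm3 were 0.35 and 0.30 with Ctrl_LNA 48, which had 0 reads of either, and -0.17 and 0.01 without it.

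Other genes of the same machinery were tested in the same fit. Of 40 further genes of 60S assembly, limma called 2 lower and 0 higher, where 1.31% and 0.881% of tested genes were called, with a median log2 fold change of -0.26 against 0.26 and 26 of 40 below 0 against 35.7%. Nvl, an AAA ATPase that releases a factor from large-subunit precursors, was called at -1.43 (SE 0.28, limma adjusted p = 0.0023). Also called was Nop9, listed here although its yeast counterpart works on the small-subunit RNA, at -1.55 (SE 0.42, limma adjusted p = 0.036, edgeR adjusted p = 0.121). The call of Nop9 also ended with median-gene centring (limma adjusted p = 0.078), and without Ctrl_LNA 48 its log2 fold change was -1.47 (limma adjusted p = 0.031). Nvl ranged from 51.5 through a median of 86.2 to 310 normalized counts in Val_LNA and from 116 through 288 to 446.5 in the 15 controls, and Ctrl_LNA 48, at 359, lay within their range. Its log2 fold change was -1.40 without Ctrl_LNA 48 (limma adjusted p = 0.000683). Without that embryo the helicase gene Ddx27 was also called (-1.14, limma adjusted p = 0.0476), making 3 of 40 against 2.63% of tested genes, with a median of -0.27 against 0.07. The call of Ddx27 was absent without Ctrl_LNA 48 by edgeR (adjusted p = 0.291), by DESeq2 (adjusted p = 0.153) and by limma with median-gene centring (adjusted p = 0.0595). Of 17 further genes of RNA polymerase I transcription 0 were called, 1 was lower at an unadjusted p under 0.05 (background 5.85%), and the median was -0.28. Without Ctrl_LNA 48 limma called 0, 5 were lower at an unadjusted p under 0.05 (background 8.46%), and the median was -0.40. With all embryos the smallest p was that of the subunit gene Znrd1 (-0.83, limma adjusted p = 0.197, and -0.82, 0.131 without Ctrl_LNA 48). Without Ctrl_LNA 48 it was that of Sirt7 (-0.90, limma adjusted p = 0.0629), which had -0.45 with all embryos (limma adjusted p = 0.686). Of 4 genes that help to assemble H/ACA particles 0 were called, and with all embryos 1 was lower at an unadjusted p under 0.05 (background 5.85%). This was Nufip1, with the smallest p (-0.80, limma adjusted p = 0.300, and -0.72, 0.307 without Ctrl_LNA 48). Without Ctrl_LNA 48 the smallest p was that of Ruvbl2 (-0.50, limma adjusted p = 0.201), whose log2 fold change was 0.03 with all embryos. Together these 61 genes had 2 called lower and 0 higher, and a median of -0.28 against 0.26 for all tested genes, and 3 lower and 0 higher and a median of -0.37 against 0.07 without Ctrl_LNA 48.

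The embryos carry library numbers in 4 unbroken runs, which the labels do not call batches: 1 to 8 and 13 to 20 in Val_LNA, 31 to 38 and 43 to 50 in Ctrl_LNA. Between the runs of lower numbers, limma called 0 of the 40 lower and 1 higher (Brix1), with background shares of 0.533% and 0.623%, and 5 were lower at an unadjusted p under 0.05 (background 5.46%). The median log2 fold change was -0.14 against 0.03 for all tested genes, with 25 of 40 below 0 (background 47.6%). Between the runs of upper numbers without Ctrl_LNA 48, limma called 0 lower and 0 higher (background 0.797% and 0.045%), and 7 were lower and 0 higher at an unadjusted p under 0.05 (background 7.02% and 6.5%). The median was -0.36 against 0.07, with 36 of 40 below 0 (background 46.4%). Limma called 0 of the 15559 genes (0.0%) for a difference of fold changes between the runs, with 2 of the 40 lower (background 1.72%) and 0 higher (background 3.47%) at an unadjusted p under 0.05, and 2 lower (background 3.05%) and 1 higher (background 2.86%) without Ctrl_LNA 48.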

How the data were processed

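Single-embryo mRNA libraries were made with template switching and 20 PCR cycles, per the labels' protocols, with no molecular identifiers and no strand marking named. Tools named in the submitters' processing notes are STAR, Bowtie2, DESeq2 and SAMtools, and the build is mm10 (versions and roles: not given in the sources used here). Deposited by the authors were a normalized signal per gene, gene counts divided by size factors, and the size factor of each embryo as a ratio, per the file headers. Value times size factor gave whole numbers for 1095136 of 1095136 deposited values (100%), at most 0.0086 from a whole number. These recovered read counts gave the depth and entered edgeR and DESeq2. Recovered counts are PCR reads, so depth bounds counting error only.

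The main test was limma 3.58.1 (R 4.3.3, trend and robust) on log2(normalized count + 1) over the 15559 genes that reached a normalized count of 10 in 8 or more embryos, with Benjamini-Hochberg adjustment over all of them and a threshold of 0.05. The log2 fold change is Val_LNA minus Ctrl_LNA and understates the change of low genes. edgeR 4.0.16 (quasi-likelihood) and DESeq2 1.42.0, other pseudocounts, filters and scalings, a depth covariate, each run of library numbers and leaving out each embryo were alternatives. The scripts were tested on simulated data. Levels were compared between genes per kilobase of the union of GENCODE M21 exons. Identifiers matched it for 34179 of 34223 genes, and all coordinates are counted from 1. The 40 genes and the other gene lists were chosen with earlier results of these data known. Full values are given for genes called with all embryos or without Ctrl_LNA 48 and for the 2 genes of each subgroup with the smallest p. Of each further list, called genes or else the gene with the smallest p are named. Afg2b, Nopchap1 and Gm4340 matched no symbol, and Nop53 was read as Gltscr2. Promoters are from RefSeq, GRCm38.p6. Python 3.11.15, numpy 2.4.6, pandas 2.3.3 and matplotlib 3.10.9 were used.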

Additional observations from a re-analysis of the deposited data

How the results depend on the processing

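The median log2 fold change of the 40 genes stayed below 0 in all 48 settings, from -0.67 (median-gene centring) to -0.13 (without Val_LNA 14). It was -0.22 with all embryos. Val_LNA 14 had the lowest median correlation (0.609) of the embryos other than Ctrl_LNA 48. The count of genes called lower, 1 with all embryos by limma, was 2 with DESeq2, 2 with DESeq2 without Ctrl_LNA 48, 2 with median-gene centring without Ctrl_LNA 48, and 0 in each run of library numbers (0 for the upper run without Ctrl_LNA 48). Leaving out 1 embryo gave 1 to 3: 3 without Ctrl_LNA 48 or Val_LNA 7, and 2 without Val_LNA 16, Ctrl_LNA 34 or Ctrl_LNA 45. The count called higher, 0, was 1 for the lower library numbers, and 0 to 1 on leaving out 1 embryo (1 without Ctrl_LNA 48). The sign of Gar1 turned from 0.24 to -0.21 with median-gene centring, -0.12 with that centring without Ctrl_LNA 48, -0.10 for the lower library numbers, -0.02 for the upper ones without Ctrl_LNA 48, -0.045 with edgeR and -0.025 with DESeq2 without Ctrl_LNA 48, and ranged from -0.052 (without Ctrl_LNA 48) to 0.34 on leaving out 1 embryo. Of the 40 genes, 23 changed sign in some setting and 9 did so without Ctrl_LNA 48. The causes were not tested. The fits without Ctrl_LNA 48 other than edgeR and leave-one-out, and the comparison at matched level, were added after seeing the data. No paired analysis was possible because the groups share no library number. The intervals of most of the 40 genes reach past a change of 1.5-fold in at least 1 direction, so an uncalled gene is not shown to be unchanged.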
